A study of Mus musculus with 8 samples.

Results

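Germline genes make the machinery of germ cells, such as the synaptonemal complex and the piRNA pathway, and body tissues commonly keep them silent by methylation of their promoters. A set of 46 such genes was followed by DNA methylation in mouse leukaemic progenitors. The members were named genes, and no level in these libraries was required of them. The list was chosen with earlier results of these data known. For each gene, the reads of every covered CpG cytosine from 1000 bp outside to 500 bp inside either end of the gene were summed. An end entered the results if its window held 3 or more positions and, in each library, 20 or more reads. Of 92 ends, 23 ends of 22 genes were kept, out of 15583 ends kept in the whole genome. Of these 23, 21 lay at the 5′ end of their gene and 1 at the 3′ end (the upper end of Mei1), and the strand of Dppa4 was not in the promoter table. An end is called lower or upper by its coordinate.

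The series holds 8 libraries of reduced representation bisulfite sequencing (RRBS), an assay that samples CpG-rich parts of the genome by cutting with a restriction enzyme and tells methylated from unmethylated cytosines by bisulfite, from I1DN leukaemic progenitors that were cKit+ and Cd11b-. Mice carrying transplanted I1DN cells received AG120 plus AZA (the combination), AG120 alone (ivosidenib, an inhibitor of mutant IDH1), AZA alone (azacitidine, an inhibitor of DNA methyltransferases) or Vehicle, for 5 days. Each of the 4 groups had 2 libraries, and the design asked what the drugs do to methylation alone and together. The genotype behind the name I1DN, the strain and age of the mice, and the number of mice behind each library are unknown from the labels. Host cells that pass the cKit and Cd11b sort would be counted with the leukaemic cells. Because nothing says that the 2 libraries of a group came from separate mice, the p-values measure only the spread between these libraries. Depth ran from 90373925 CpG calls in replicate 2 of the combination to 130796962 in Vehicle replicate 2. The 4 libraries with AG120 covered 1386488 to 1749778 positions and the 4 without it 1831177 to 1994393. Of the progenitor markers, Kit, Cd34, Flt3, Gata2, Meis1 and Myb had a measured end, with mean levels between 1.001 and 6.16%, and none of the 6 mature myeloid markers had one. A mean under 20% was also found at 74.1% of all ends and at Cdh1, an epithelial marker. Low levels therefore do not identify the cells. The stromal markers Cxcl12 and Pdgfrb lay between 20 and 80%. Transcripts were not analysed here, so the silence of the genes was not measured.

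In mammals these genes gain methylation around implantation from the de novo methyltransferases, lose it in primordial germ cells, and otherwise keep it by maintenance methylation. A variant Polycomb complex with E2F6, MGA and MAX recognises E2F and E-box sequences in many of their promoters and helps to set up the silence. Because some of them turn on when methyltransferases are inhibited in cultured tumour cells, they are used as markers of lost promoter methylation.

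Of 46 genes, 39 had a promoter in the RefSeq table (GRCm38.p6, the coordinates of mm10), given as 250 bases before to 50 after a transcript start. The 6 promoters below are shown to set methylated beside unmethylated promoters, not matched for CpG content. They are the 3 methylated, 1 intermediate and 2 unmethylated ones with the most CpGs read, among those with 20 or more reads in each library. They run 5′ to 3′ along the gene, and capitals mark each CpG with at least 1 read in some library.
Ddx4 (chr13:112652261-112652560, minus strand): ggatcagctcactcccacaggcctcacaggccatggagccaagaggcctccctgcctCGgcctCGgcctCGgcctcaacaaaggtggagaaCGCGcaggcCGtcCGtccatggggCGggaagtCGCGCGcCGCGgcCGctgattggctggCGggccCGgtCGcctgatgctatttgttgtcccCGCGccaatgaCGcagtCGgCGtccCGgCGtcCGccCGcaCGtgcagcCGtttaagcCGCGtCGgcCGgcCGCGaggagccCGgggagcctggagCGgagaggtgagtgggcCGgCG
Dmrtb1 (chr4:107683540-107683839, minus strand): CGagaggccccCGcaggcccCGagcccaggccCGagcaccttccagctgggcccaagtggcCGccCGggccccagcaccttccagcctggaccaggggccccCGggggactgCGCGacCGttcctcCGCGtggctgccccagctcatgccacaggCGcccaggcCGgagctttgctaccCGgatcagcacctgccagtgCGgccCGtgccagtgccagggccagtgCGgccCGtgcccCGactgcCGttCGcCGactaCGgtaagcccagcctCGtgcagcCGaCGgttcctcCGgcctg
Slc25a31 (chr3:40708621-40708920, plus strand): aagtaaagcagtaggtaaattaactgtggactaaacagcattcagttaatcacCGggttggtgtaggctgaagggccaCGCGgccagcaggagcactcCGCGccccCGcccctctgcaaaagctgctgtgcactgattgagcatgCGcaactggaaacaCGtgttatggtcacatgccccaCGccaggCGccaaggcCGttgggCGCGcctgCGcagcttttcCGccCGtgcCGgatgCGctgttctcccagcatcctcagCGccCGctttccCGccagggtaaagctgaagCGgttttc
Boll (chr1:55362679-55362978, minus strand): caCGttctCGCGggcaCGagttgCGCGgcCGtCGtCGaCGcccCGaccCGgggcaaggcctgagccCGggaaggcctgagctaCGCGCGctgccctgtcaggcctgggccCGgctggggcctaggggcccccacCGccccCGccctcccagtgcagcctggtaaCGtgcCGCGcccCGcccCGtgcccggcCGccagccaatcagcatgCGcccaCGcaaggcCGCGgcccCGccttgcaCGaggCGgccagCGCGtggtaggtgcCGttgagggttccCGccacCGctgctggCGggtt
Tdrd5 (chr1:156303299-156303598, minus strand): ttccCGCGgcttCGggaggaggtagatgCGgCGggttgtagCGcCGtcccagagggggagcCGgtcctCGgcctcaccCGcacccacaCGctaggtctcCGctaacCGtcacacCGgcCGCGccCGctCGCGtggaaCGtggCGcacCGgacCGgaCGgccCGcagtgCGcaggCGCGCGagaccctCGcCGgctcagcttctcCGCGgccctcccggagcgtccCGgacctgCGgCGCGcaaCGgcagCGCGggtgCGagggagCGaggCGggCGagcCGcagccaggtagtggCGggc
Syce2 (chr8:84872008-84872307, plus strand): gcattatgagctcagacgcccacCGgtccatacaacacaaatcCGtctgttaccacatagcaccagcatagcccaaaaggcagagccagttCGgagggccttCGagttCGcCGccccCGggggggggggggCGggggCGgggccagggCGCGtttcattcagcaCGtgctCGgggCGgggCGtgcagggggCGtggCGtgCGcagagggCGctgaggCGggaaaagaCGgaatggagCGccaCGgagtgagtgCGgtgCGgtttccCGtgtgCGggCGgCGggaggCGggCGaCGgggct

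Reads inside these 300 bases were almost all methylated at the first 3 promoters. Ddx4, the germ cell RNA helicase Vasa, had 96.6 and 95.9% in the combination, 99.3 and 97.9% with AG120, 94.7 and 87.0% with AZA, and 99.9 and 93.9% in Vehicle, over 38 of its 38 CpGs. Dmrtb1, a transcription factor of spermatogonia that times entry into meiosis, had 99.9 and 88.8%, 99.0 and 97.4%, 90.7 and 98.6%, and 93.7 and 86.3% in the same order. Slc25a31, the ADP/ATP carrier of spermatogenic cells, had 80.2 and 95.01% in the combination and between 99.5 and 100% in the other 6 libraries. The combination libraries were the 2 lowest at Slc25a31, and at Ddx4 and Dmrtb1 the combination overlapped with Vehicle. At Ddx4 the AZA libraries lay below those of the combination, and these below those with AG120. Both AG120 libraries at Dmrtb1 lay above both Vehicle libraries. The last 2 promoters were almost free of methylation. Tdrd5, a tudor protein of the piRNA pathway, stood between 0 and 2.01% over 46 of 48 CpGs. Syce2, of the central element of the synaptonemal complex, was at 0% in 7 libraries and at 8.51% in AZA replicate 1, over 32 of 33 CpGs and from 25 to 2502 reads per library. Boll, a translational regulator of the DAZ family shown at the second of its starts, lay between at 56.3 to 100%, from 48 to 5226 reads. It had 89.8 and 79.9% in the combination, 56.3 and 76.5% with AG120, 82.0 and 100% with AZA, and 95.7 and 68.9% in Vehicle.

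Most of the measured germline ends were highly methylated in every group. The mean over the 8 libraries was at least 80% at 15 of 23 ends, between 20 and 80% at 4, and under 20% at 4. Over all 15583 ends, 10.8% were at least 80% methylated and 74.1% were under 20%. Over all 5′ ends, these shares were 4.31 and 83.0%. The label of silencing by methylation thus held for the levels of 15 ends and not for 4, namely the 5′ ends of Tdrkh, Syce2 and Zpbp2 and the 3′ end of Mei1. Every library was at or above 80% at 8 ends, those of Tdrd9, Dazl, Mael, Tuba3b, Ddx4, Tdrd1, Sycp3 and Tex101, against 624 of all ends. The median over the germline ends was 86.8 and 82.5% in the combination, 90.3 and 90.9% with AG120, 92.0 and 87.0% with AZA, and 84.3 and 94.8% in Vehicle. The combination libraries lay below those of AG120 and of AZA and overlapped with Vehicle, an order that was lost in windows at transcript starts, where they had 91.6 and 87.0%.

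**Figure D1:**
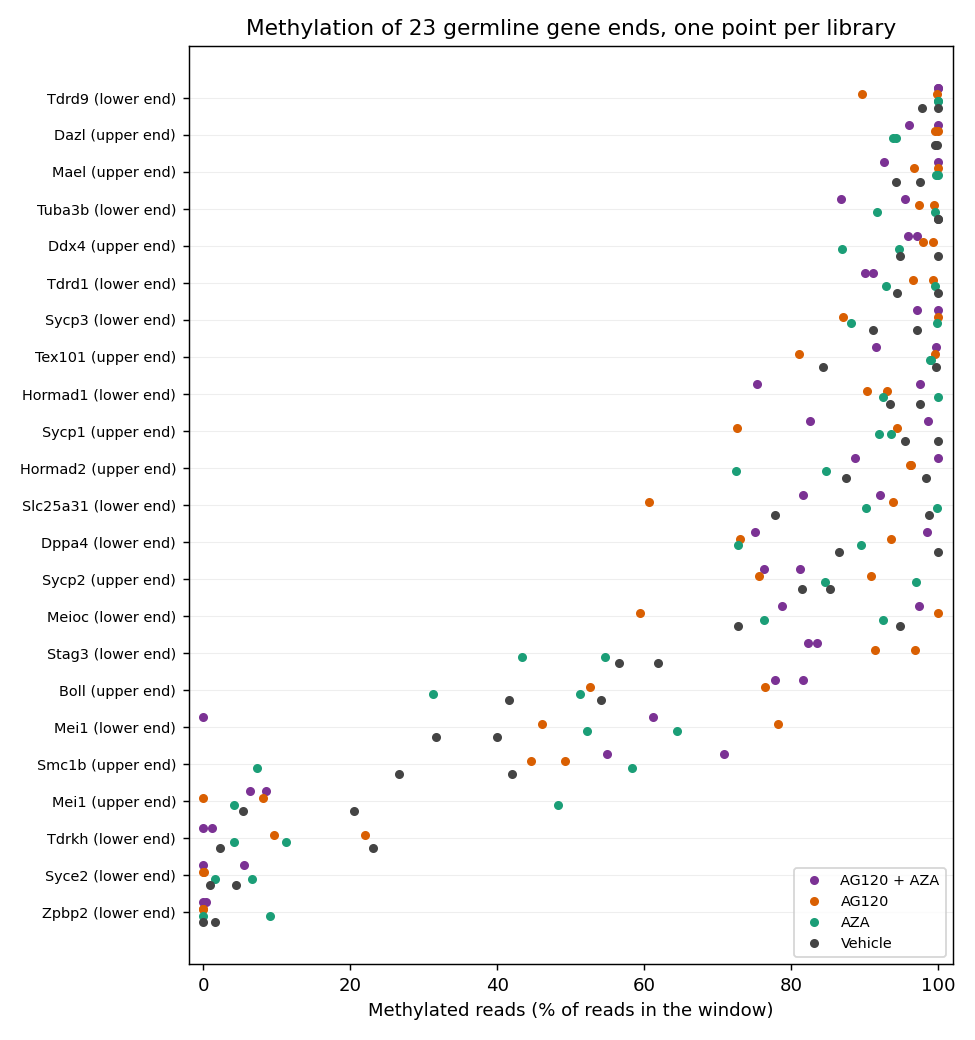
Methylation level of each of the 23 germline gene ends, as the percent of reads in the window that were methylated (horizontal axis), 1 point per library coloured by group, with ends ordered by the mean of the 8 libraries. A reader should see 15 ends at 80% or more, 4 spread between 20 and 80%, and 4 near the left edge.

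The levels did not separate into a fine order. The 2 libraries of a group differed by a median of 7.62 points over the germline ends, so neighbours from Tdrd9 at 98.4% down to Hormad2 at 90.5% do not differ beyond that spread, nor do Slc25a31 (86.9%), Dppa4 (86.1%), Sycp2 (84.0%) and Meioc (84.0%) among themselves. Below them came Stag3 (71.3%), Boll (58.4%), the lower end of Mei1 (46.7%) and Smc1b (44.2%), and then the upper end of Mei1 (12.7%), Tdrkh (9.18%), Syce2 (2.40%) and Zpbp2 (1.36%). The 15 high germline ends ranged over a median of 18.7 points between their highest and lowest library, against 25 points at the 1668 other ends with a mean of at least 80%, and had a median of 292 reads in their shallowest library, against 96 at those other ends.

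Of the 6 measured genes of the synaptonemal complex and the meiotic chromosome axis, Sycp1, Sycp2, Sycp3, Hormad1 and Hormad2 had means of at least 80% and Syce2 was at 2.40%. Sycp1, the transverse filament protein (chromosome 3, 102935600 to 102937100), had 98.6 and 82.5% in the combination, 72.6 and 94.4% with AG120, 92.0 and 93.5% with AZA, and 95.5 and 100% in Vehicle. Both AG120 libraries lay below both Vehicle libraries, a difference of −14.2 points (83.5% ± 15.4 and 97.7% ± 3.21, SD, n = 2 each; edgeR adjusted p = 1), which was −2.32 points in a window of 500 bp on either side. Sycp2 of the lateral element (chromosome 2, 178407276 to 178408776) had 81.1 and 76.4%, 75.6 and 90.9%, 96.9 and 84.6%, and 81.4 and 85.3% in the same order. Both combination libraries at Sycp2 lay below both with AZA, by 12.0 points on average (edgeR adjusted p = 1). At its 4 CpGs read in all libraries, with both strands merged, AZA replicate 1 had 47.7% from 44 reads, and the combination mean was then 12.6 points above that of AZA. Sycp3, also of the lateral element, had 98.6% ± 2.01 in the combination, 93.5% ± 9.19 with AG120, 94.0% ± 8.24 with AZA and 94.1% ± 4.25 in Vehicle. Hormad1, an axis protein with a HORMA domain, had 86.5% ± 15.7, 91.7% ± 1.94, 96.3% ± 5.29 and 95.5% ± 2.87. Its paralogue Hormad2 (chromosome 11, 4440698 to 4442198) had 99.9 and 88.7% in the combination, 96.2 and 96.3% with AG120, 72.4 and 84.8% with AZA, and 87.5 and 98.4% in Vehicle. The AZA libraries were the 2 lowest at Hormad2, at 78.6% ± 8.74 against 92.9% ± 7.68 in Vehicle (edgeR adjusted p = 1), and Vehicle replicate 1 rested on 24 reads, with an exact 95% binomial interval of 67.6 to 97.3%. In the 300 bases at the start of Hormad2, 11 of 16 CpGs were read, in 6 libraries and not in Vehicle. There the combination had 99.9 and 22.4%, AG120 96.7 and 97.7%, and AZA 77.8 and 84.7%, so the AZA libraries were not the lowest. Syce2 (chromosome 8, 84871111 to 84872611) was unmethylated over its whole window as in the promoter printed above, with 5.50 and 0%, 0.0580 and 0%, 6.63 and 1.6%, and 0.908 and 4.49%.

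Of the 4 intermediate ends, 3 belonged to the cohesin genes Stag3 and Smc1b and to Mei1, and the other was that of Boll. Meioc, one of the high ends, keeps germ cells in meiotic prophase and had 88.1% ± 13.2 in the combination, 79.7% ± 28.7 with AG120, 84.4% ± 11.4 with AZA and 83.8% ± 15.6 in Vehicle, with 33 and 40 reads in its shallowest libraries. Smc1b, the meiotic SMC1 subunit of cohesin (chromosome 15, 85131457 to 85132957), had 70.9 and 55.0% in the combination, 49.3 and 44.5% with AG120, 7.28 and 58.3% with AZA, and 42.0 and 26.6% in Vehicle. The window of Smc1b also holds the start of Ribc2. The combination and AG120 libraries lay above both Vehicle libraries there, by 28.6 and 12.6 points (edgeR adjusted p = 1 for both). With each position counted once, these differences were 11.9 and −6.70 points. In the 300 bases at its start, with 29 of 29 CpGs read, the combination had 65.9 and 57.7% and AG120 30.2 and 47.4%. AZA had 8.33 and 0.839% there, and Vehicle 45.6 and 24.1%. In these bases AG120 overlapped with Vehicle, and both AZA libraries lay below all others. Mei1, needed for meiotic double-strand breaks, had an intermediate lower end (chromosome 15, 82069074 to 82070574) with 0 and 61.2%, 46.04 and 78.2%, 64.5 and 52.2%, and 31.7 and 39.9% in the same order. The 0 in replicate 1 of the combination came from 344 reads, which allow up to 0.872%. The nearest start of Mei1 in the promoter table lies 12402 bp from that end. Its 3′ end (82126317 to 82127817) had 8.55 and 6.33%, 8.10 and 0%, 48.2 and 4.20%, and 20.5 and 5.44%, with AZA replicate 1 the highest of the 8 libraries.

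Stag3, the meiosis-specific STAG subunit of cohesin (chromosome 5, 138271514 to 138273014), was the only germline end where all 4 libraries with AG120 lay on one side of all 4 without it. It had 83.5 and 82.4% in the combination and 96.9 and 91.5% with AG120, against 43.4 and 54.6% with AZA and 61.8 and 56.6% in Vehicle. The mean was 88.5% ± 6.88 with AG120 and 54.1% ± 7.75 without it (SD, n = 4 each), a difference of 34.4 points. With each position counted once, the difference was 12.99 points. The exact permutation p, two-sided, was 0.0286, the smallest that 4 libraries against 4 allow, and edgeR gave p = 0.0775 with an adjusted p of 1. Any end with such a full separation gets this permutation p, so it restates the separation and adds no evidence. Among all ends, 1.13% had every AG120 library higher and 3.19% every AG120 library lower, beside 1 and 0 of the 23 germline ends. No position of this window was read in all 8 libraries. The 2 deepest positions, 138272861 and 138272864, carried 352 and 0 reads in the combination and 20 and 373 with AG120 alone, against 747 and 1599 with AZA and 630 and 763 in Vehicle. They were methylated in 99.4% of reads in replicate 1 of the combination and in 0 and 72.1% with AG120 alone, against 0 and 50.03% with AZA and 29.4 and 32.4% in Vehicle. At the other positions of the window the level was 79.5 and 82.4% in the combination and 99.5 and 94.4% with AG120, against 68.9 and 61.5% with AZA and 93.0 and 70.8% in Vehicle. There the 4 libraries with AG120 overlapped with the 4 without it, since Vehicle replicate 1 lay above both combination libraries. AG120 alone still lay above Vehicle, and the combination above AZA. At 3 CpGs read in all libraries, with strands merged, all 4 libraries with AG120 were at 100%, against 100 and 54.1% with AZA and 93.6 and 69.8% in Vehicle. Over all calls of a library, 41.5 to 50.5% were methylated in the 4 libraries with AG120 and 32.6 to 39.2% in the 4 without it. The part of uneven coverage and of these library-wide shares in the difference at Stag3 was not tested. This end lies 7995 bp from the RefSeq transcript start of Stag3 and overlaps Gal3st4. In the window from 1000 bp before to 500 bp after that start the level was 0 and 8.48% in the combination, 7.58 and 9.08% with AG120, 0.384 and 4.73% with AZA, and 2.40 and 6.98% in Vehicle. These reads lay elsewhere in the window, since 0 of the 30 CpGs in the 300 bases at the start were read in any library.

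**Figure D2:**
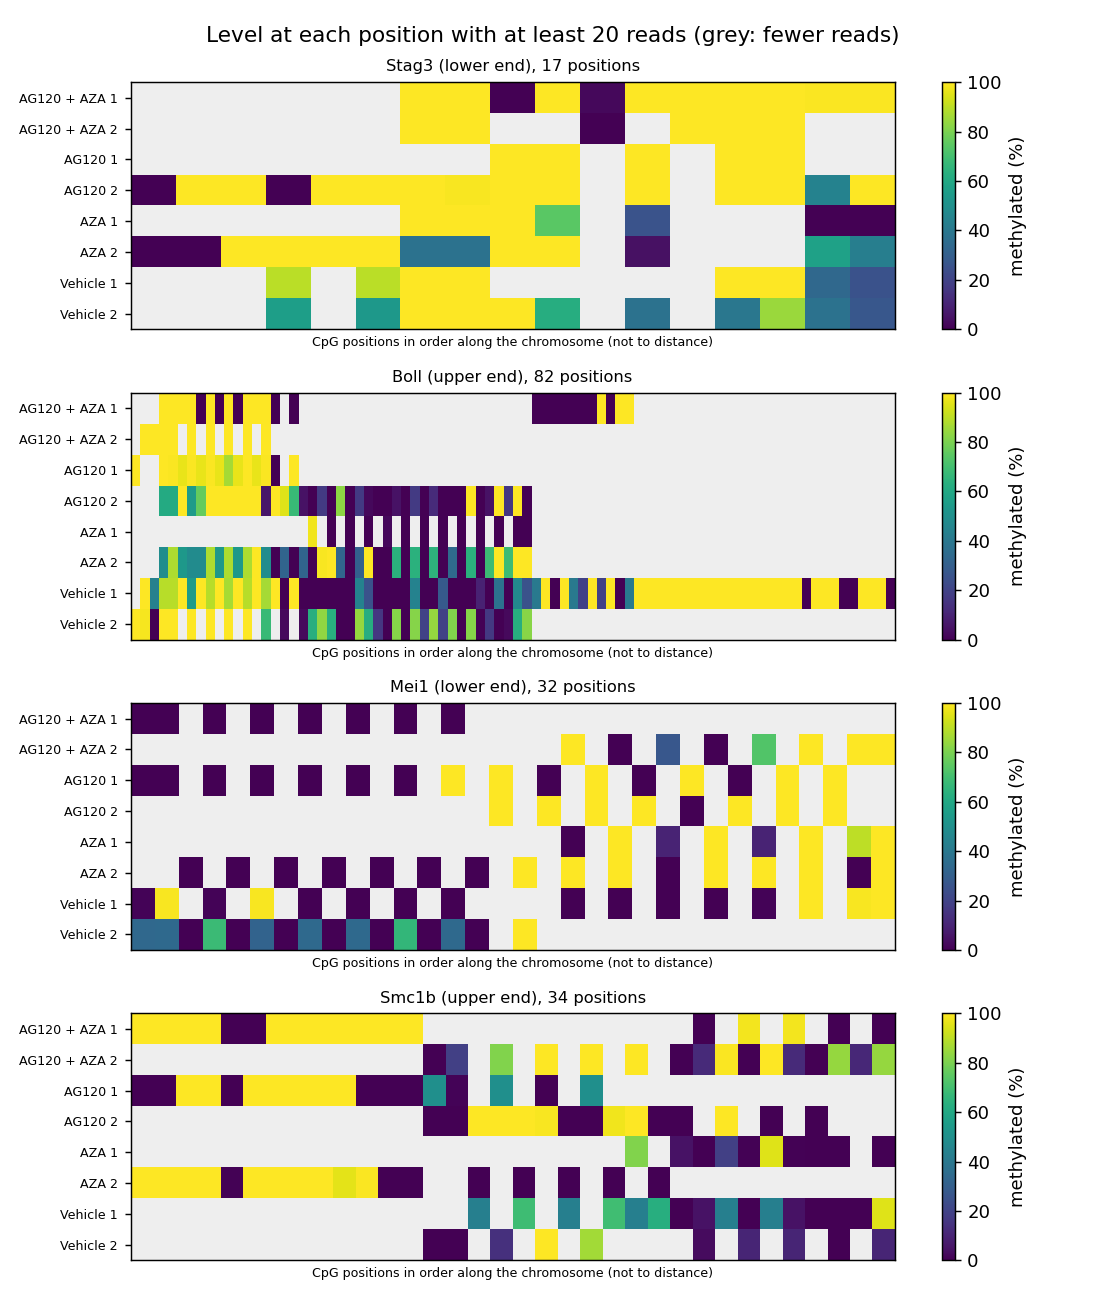
Methylation at single CpG positions of the 4 intermediate germline ends (columns, in chromosome order and not to distance) in each library (rows), for positions with at least 20 reads. A reader should see that most cells are near 0 or 100%, and that libraries read different positions of the same window, with the deep right-hand positions of Stag3 grey in 1 library of each AG120 group.

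Among germ cell RNA regulators, Dazl, which binds and promotes translation of germ cell transcripts, was close to full methylation. It had 96.0 and 100% in the combination, 99.5 and 99.95% with AG120, 93.9 and 94.3% with AZA, and 99.6 and 99.9% in Vehicle (chromosome 17, 50293120 to 50294620). The 2 AZA libraries were the lowest of the 8, at 94.1% ± 0.280 against 99.8% ± 0.218 in Vehicle (edgeR adjusted p = 1). At 6 CpGs read in all libraries, both AZA libraries were at 100% and replicate 1 of the combination at 83.4%. Boll, its relative (chromosome 1, 55363289 to 55364789), had 77.8 and 81.6% in the combination, 76.4 and 52.7% with AG120, 31.3 and 51.3% with AZA, and 41.7 and 54.1% in Vehicle. The combination libraries were the 2 highest, 31.8 points above Vehicle (79.7% ± 2.74 and 47.9% ± 8.84; edgeR adjusted p = 1). The combination libraries had few or no reads over a stretch of low positions that the Vehicle libraries read, as the plot of single positions shows. At 9 CpGs read in all libraries the levels were 88.4 and 96.2% in the combination, 90.3 and 79.8% with AG120, 50.5 and 58.3% with AZA, and 74.4 and 87.2% in Vehicle. There the AZA libraries were the 2 lowest, and the combination stood 11.5 points above Vehicle. In the 300 bases printed above, outside this window, the combination (89.8 and 79.9%) overlapped with Vehicle (95.7 and 68.9%), and AZA had 82.0 and 100%. With each position counted once, the combination was 3.57 points below Vehicle at Boll, so the direction depended on which positions were counted.

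The piRNA pathway, which silences transposons in germ cells with small RNAs, had 4 measured genes besides Ddx4. Mael, needed for piRNA production, had 96.3% ± 5.19 in the combination, 98.3% ± 2.36 with AG120, 99.9% ± 0.170 with AZA and 95.9% ± 2.29 in Vehicle. Tdrd9, a tudor domain helicase, had 100%, 94.8% ± 7.21, 99.97% ± 0.0403 and 98.9% ± 1.57 in the same order. Tdrd1, a tudor scaffold that binds PIWI proteins (chromosome 19, 56825171 to 56826671), had 90.1 and 91.2% in the combination, 96.7 and 99.4% with AG120, 99.7 and 92.9% with AZA, and 94.4 and 99.97% in Vehicle. The combination libraries were the 2 lowest at Tdrd1, 6.55 points below Vehicle (edgeR adjusted p = 1). They were also the 2 lowest at the 4 CpGs of Tdrd1 read in all libraries, with 90.9 and 75.0%, against 98.0 to 100% in the other 6. Tdrkh, a tudor protein of piRNA trimming (chromosome 3, 94412243 to 94413743), was low, with 1.10 and 0% in the combination, 9.54 and 22.0% with AG120, 11.3 and 4.22% with AZA, and 2.30 and 23.01% in Vehicle. Its window also holds the start of 1700040D17Rik. The combination libraries were the lowest there too, by 12.1 points against Vehicle (edgeR adjusted p = 1), and at 4 shared CpGs AG120 replicate 2 and AZA replicate 2 were at 0% with them. The window of Ddx4 (chromosome 13, 112652133 to 112653633) had 97.1 and 95.9%, 99.3 and 97.9%, 94.7 and 87.0%, and 99.9 and 94.8%, with the AZA libraries lowest, 6.51 points below Vehicle (edgeR adjusted p = 1). Over its 12 CpGs read in all libraries, with strands merged, AZA (94.4 and 73.1%) overlapped with Vehicle (100 and 91.5%).

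The other 5 measured genes were Tuba3b, Tex101, Slc25a31 and Dppa4, with means of at least 80%, and Zpbp2, at 1.36%. Tuba3b, an alpha-tubulin of the testis (chromosome 6, 145614963 to 145616463), gave the smallest p of all germline ends. It had 86.8 and 95.5% in the combination, 97.4 and 99.5% with AG120, 99.5 and 91.7% with AZA, and 99.95 and 99.96% in Vehicle. The combination was 8.80 points below Vehicle (91.2% ± 6.20 and 99.95% ± 0.00763; edgeR adjusted p = 0.991), and both Vehicle libraries lay above the other 6. Tuba3b has a near-identical copy, Tuba3a, so its reads are uncertain, and AZA replicate 2 rested on 60 reads. Tex101, a surface protein of germ cells, had 95.7% ± 5.79, 90.3% ± 13.1, 99.0% ± 0.0876 and 92.0% ± 10.9 in the same order of groups. Slc25a31 (chromosome 3, 40707871 to 40709371) had 92.0 and 81.6% in the combination, 93.9 and 60.7% with AG120, 99.9 and 90.2% with AZA, and 77.8 and 98.8% in Vehicle over its whole window, where the groups overlapped. Dppa4, of early embryos and pluripotent cells, had 86.8% ± 16.5, 83.4% ± 14.5, 81.2% ± 11.9 and 93.2% ± 9.56. Zpbp2, of the sperm acrosome (chromosome 11, 98550097 to 98551597), was unmethylated, with 0 and 0.315% in the combination, 0% in both AG120 libraries, 8.998 and 0% with AZA, and 1.55 and 0% in Vehicle. The fewest reads behind a 0 at Zpbp2 were 66, in AZA replicate 2, which allow up to 4.55%.

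No germline end passed the test of a difference between groups. The edgeR quasi-likelihood test, adjusted by Benjamini and Hochberg over 15583 ends, called 0 ends in each of the 5 pairwise comparisons and in the 2 comparisons by drug (0% of all ends). An unadjusted p under 0.05 was reached by 1 germline end, Tuba3b in the combination against Vehicle, beside 762 of all ends (4.89%, the share to read it against). In the other comparisons it was reached by 0 germline ends, beside 486 of all ends (3.12%) for AG120 against Vehicle, 358 (2.3%) for AZA against Vehicle, 718 (4.61%) for the combination against AZA and 687 (4.41%) against AG120. It was reached by 699 of all ends (4.49%) for AG120 given or not and by 529 (3.39%) for AZA given or not. Limma called 0 ends in the same 7 comparisons, with 712 to 1071 of all ends under an unadjusted 0.05. The likelihood ratio test of edgeR called between 3 and 278 of all ends and DESeq2 between 0 and 305, and both called 0 germline ends in all 7 comparisons. The smallest adjusted p of a germline end was 0.0506 in the likelihood ratio test and 0.0613 in DESeq2, both in the combination against Vehicle. There, Tdrkh and Tuba3b were under an unadjusted 0.05 in both tests, beside 2196 and 2373 of all ends. For DESeq2, up to 3020 adjusted p-values were not given by the tool.

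In the combination against Vehicle, 10 germline ends were higher and 13 lower, with a median difference of −0.856 points, beside −0.186 over all ends. The 2 groups did not overlap at 4 higher germline ends (Boll, Stag3, Sycp3 and Smc1b) and 4 lower ones (Sycp2, Tdrkh, Tuba3b and Tdrd1), which is 8 of 23, where 11.5% of all ends were higher without overlap and 25.3% lower. The 3 largest positive differences were at intermediate ends and the 15 high ends differed by a median of −1.47 points, beside −0.141 at the other high ends of the genome. For AG120 against Vehicle the median was −0.615 points, beside −0.0667 over all ends. There, 3 ends were higher without overlap (Stag3, the lower end of Mei1 and Smc1b; 12.5% of all ends) and 4 lower (Hormad1, Sycp1, Tuba3b and Syce2; 20.1%). For AZA against Vehicle the median was −0.0942 points, beside −0.147. There, 2 ends were higher without overlap (Mael and the lower end of Mei1; 12.6%) and 6 lower (Sycp1, Stag3, Tuba3b, Hormad2, Ddx4 and Dazl; 19.6%). Of these 6, 5 were among the 15 high ends, a share of high ends that was 19.7% in the genome. These 3 comparisons share the Vehicle libraries.

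The combination was also set against each drug alone, which asks what the second drug adds. Against AZA, the median difference over the germline ends was −2.21 points, beside −0.0198 over all ends. Groups did not overlap at 5 higher ends (Boll, Stag3, Hormad2, Ddx4 and Dazl; 12.8% of all ends) and at 3 lower ones (Sycp2, Tdrkh and Tdrd1; 20.2%). Against AG120, the median was 0.158 points, beside −0.0181, with 3 higher ends (Boll, Tdrd9 and Smc1b; 12.2%) and 5 lower ones (Tdrkh, Stag3, Tuba3b, Ddx4 and Tdrd1; 17.1%). When AG120 given was set against AG120 not given, 7 germline ends were higher and 16 lower, with a median of −2.03 points, beside 0 over all ends, while their mean was 1.54 points. For AZA given against not given, 13 were higher and 10 lower, where the median was 1.05 points, beside −0.101 over all ends, and the mean −0.267. Without overlap, 0 germline ends were higher or lower with AZA, where 0.783 and 1.85% of all ends were. Of the germline ends, 0 went in opposite directions without overlap between the presence and absence of the other drug, where 4.26% of all ends did for AG120 and 4.61% for AZA. Each of the 7 median differences over the germline ends changed sign under at least 1 of the alternatives tried.

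**Figure D3:**
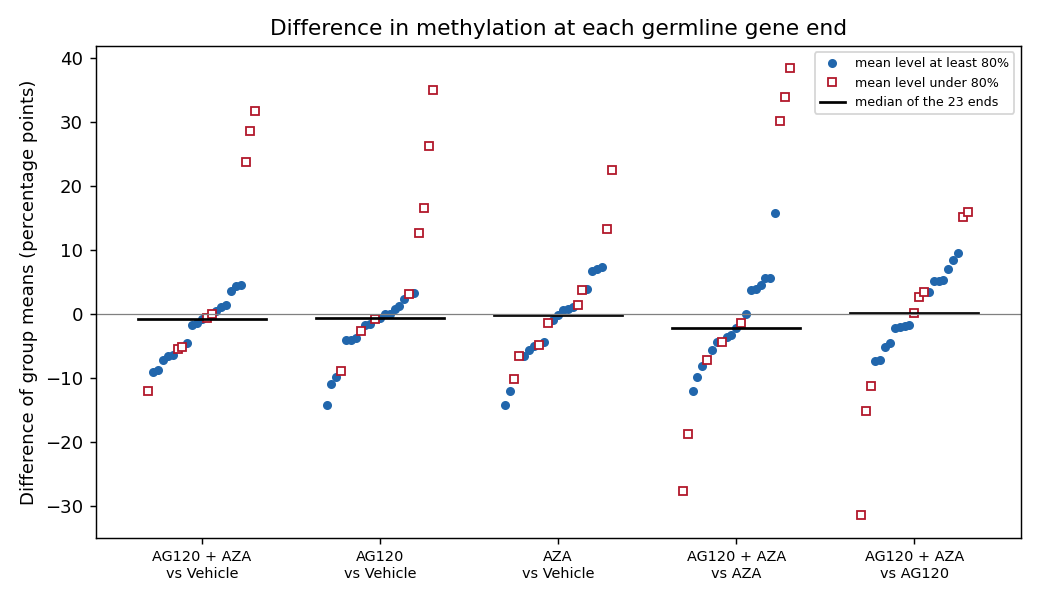
Difference in methylation (percentage points, first group minus second) at each of the 23 germline ends in the 5 pairwise comparisons. Filled circles are the 15 ends with a mean of at least 80%, open squares the other 8, and black lines the medians, which lie between −2.21 and 0.158; a reader should see that differences above 20 points belong to open squares.

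Reads at single positions were mostly all methylated or all unmethylated. Of 2533 values at positions with at least 20 reads in a library, 85.7% stood at exactly 0 or 100% over the germline ends. This was 90.4% at the 15 high ends, beside 86.5% at other high ends, and 66.3% at the 4 intermediate ones, beside 72.5% at other intermediate ends. Reads of 1 restriction fragment start at the same place, and without molecular identifiers copies of 1 molecule cannot be told from separate molecules. The number of reads in a window may therefore overstate its precision, and binomial intervals and limits cover counting error only. The windows were also read at different positions. Of 23 germline ends, 10 held a position read in all 8 libraries and 13 held none, and with strands merged 13 held at least 3 CpGs read in all, from 3 to 15. On these CpGs, 8 of 13 ends had a mean of at least 80%, 2 (Boll and Sycp2) lay between 20 and 80%, and 3 were under 20%.

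Levels were also taken around transcript starts. In windows from 1000 bp before to 500 bp after a RefSeq start, 22 germline genes were measured. Of these, 15 had a mean of at least 80%, 2 (Boll and Smc1b) lay between 20 and 80%, and 5 were under 20%, namely Stag3, Tdrd5, Tdrkh, Syce2 and Zpbp2. Dmrtb1, at 95.1%, and Tdrd5, at 8.5%, were measured here and not at the gene ends. Over 10663 genes, 4.06% of starts were at least 80%. From 200 bp before to 300 bp after the start, the mean in bins of 100 bp stayed between 83.1 and 99.7% in all 4 groups at the methylated germline starts, from 3 to 8 genes a bin. Over all measured starts, which were not chosen by level, it stayed between 6.29 and 8.57%. The germline starts in this profile were those at 80% or more in windows that hold these bins, so their height here follows from that choice.

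**Figure D4:**
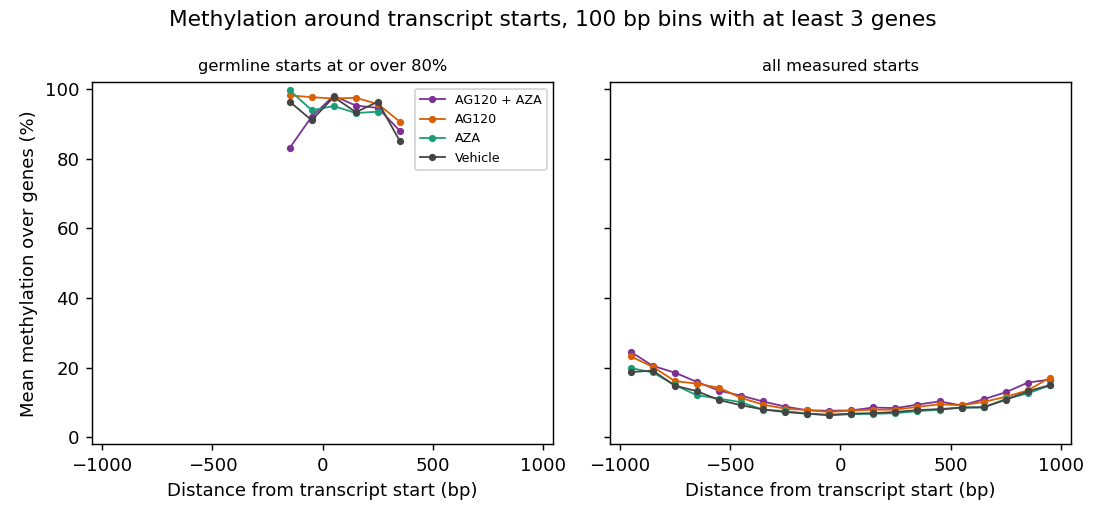
Mean methylation (percent) by distance from the RefSeq transcript start in bins of 100 bp, for germline genes with a start window of at least 80% (left) and for all measured genes (right), 1 line per group; bins with fewer than 3 genes are left out, and on the left only the bins from −200 to 400 bp are drawn. A reader should see the methylated germline starts between 83.1 and 99.7% from −200 to 300 bp, and all starts near 7%.

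The methylated germline promoters were not poor in CpG. Those 15 had a median of 21 CpGs in 300 bases and a ratio of observed to expected CpG of 0.713, while the 433 promoters of the genome at 80% or more had a median of 7 CpGs and 0.381. The 15 were called methylated by the window from 1000 bp before to 500 bp after the start. Of the CpGs in their 300 bases, Tdrd9 had 0 of 10 read, Sycp3 1 of 15 in 4 libraries and Sycp2 2 of 10 in 1. Meioc was read there in 2 libraries, Dazl and Tdrd1 in 3, Hormad2 in 6 and Tuba3b in 7. Measured promoters as a whole had a median of 23 CpGs and 0.789. Among the 9473 measured promoters with at least 10 CpGs, 1.66% were at least 80%, and 15 of those 157 were germline members. The 5 germline promoters with a start window under 20% had a median of 26 CpGs and 0.956. The E-box CACGTG was present in 8 of the 15 methylated germline promoters (53.3%), in 13 of 39 germline promoters in the table (33.3%), in 7.30% of all 26794 promoters and in 10.5% of measured ones. The E2F6 core TCCCGC, searched on both strands as is the palindromic E-box, was present in 53.3, 46.2, 20.2 and 39.3% in the same order. Both were present in 6 of the 15 (40%), 2.07% of all promoters and 4.22% of measured ones. Of the 5 with a start window under 20%, 1 held the E-box (Stag3) and 4 the E2F6 core. In these counts each gene stands at the first of its listed starts, which for Syce2 and Boll is not the start printed above. The printed start of Syce2 also holds the E-box. In the sequences above, Ddx4 holds the E-box 29 bases before its start and the E2F6 core 136 bases before, Slc25a31 the E-box 93 bases before and the core 21 bases after, Boll the core 27 bases after, Tdrd5 the core at base −249, and Syce2 the E-box 88 bases before and the core 34 bases before and 29 bases after. These matches are letters, not measured binding.

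**Figure D5:**
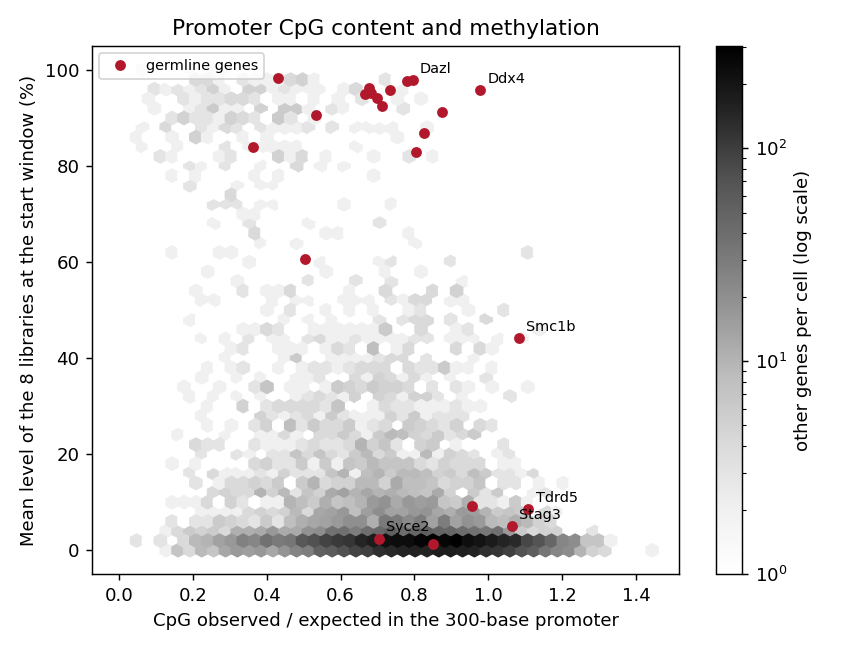
Mean methylation of the start window over the 8 libraries (vertical axis, percent) against the ratio of observed to expected CpG in the 300-base promoter (horizontal axis), with germline genes as red points and the density of other measured genes in grey on a log scale. A reader should see 15 germline genes above 80%, many at ratios where other genes lie near 0%.

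Of the other 24 genes, 16 had under 20 reads in at least 1 library at their better end, Nanos3 had fewer than 3 positions, and 7 had no covered position. Where single libraries had enough reads, the 5′ ends of several were high. Asz1, a piRNA pathway protein, had 91.3 to 100% in 7 libraries, and Tex14, of the intercellular bridges of germ cells, 64.8 to 100% in 7 with a median of 99.7%. Rpl10l, the testis copy of a ribosomal protein gene, had 88.8 to 100% in 6 libraries, Msh4, of meiotic crossing-over, 86.3 to 100% in 5, and Tuba3a 99.3 to 100% in 5. Dmc1, the meiotic recombinase, had 53.1 to 99.4% in 6. Other ends were lower or mixed. The lower end of Tex15 had 0 to 64.5% in 5 libraries with a median of 16.7%, and the lower end of Dppa3 had 40 to 72.7% in 5. The 5′ end of Tdrd5 had 0 to 100% in 4 with a median of 54.4%. These ends were in no test, since libraries without enough reads were missing.

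The genes that write, read or enforce this silence were measured the same way, at 19 ends of repressors and 13 ends of the methylation machinery. A level under 20% was found at 94.7% of the repressor ends and 76.9% of the machinery ends, beside 74.1% of all ends. Over all 5′ ends this share was 83.0%. Of the repressor ends, 18 were under 20%, and Zfp42, a zinc finger repressor of pluripotent cells, stood at 81.2%. Of the machinery ends, 10 were under 20%, among them Dnmt3b, a de novo methyltransferase, at 0.236% ± 0.333 in the combination against 3.317% ± 0.983 in Vehicle (edgeR adjusted p = 0.991). Hdac2, a histone deacetylase, had 0% in both combination libraries, where the reads allow up to 0.0716%, against 0.906% ± 0.383 in Vehicle (edgeR adjusted p = 0.991). Cbx3, a heterochromatin protein, had 0% against 2.19% ± 1.96 (edgeR adjusted p = 1), and Uhrf2, a relative of the maintenance factor Uhrf1, had 51.0% ± 33.1 against 5.49% ± 4.41 (edgeR adjusted p = 0.991). In both lists 0 ends passed the test in all 7 comparisons.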

How the data were processed

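RRBS libraries were trimmed with Trim Galore 0.4.4 and processed with Bismark 0.22.3 and SAMtools 1.4.1 against mm10, per the submitters' processing notes, which also name bcl2fastq 2.17.1.14, R 4.0.2 and edgeR 3.32. The authors deposited 1 table of methylated and unmethylated read counts at 4006353 positions in 8 libraries, and those counts were used as deposited. Counts were summed per gene end (1000 bp outside to 500 bp inside, at least 3 positions, at least 20 reads in every library). The level is methylated reads over all reads, in percent. The test on summed counts was edgeR's (4.0.16, R 4.3.3) quasi-likelihood F-test with robust fitting, two-sided, with a term per library, a methylation term per group and Benjamini-Hochberg adjustment over 15583 ends (threshold 0.05). The test was tried on simulated data first. Alternatives were limma 3.58.1 (pseudocount 2), a likelihood ratio test, DESeq2 1.42.0, a replicate block, other filters and windows, and leaving out each library. Limits for a level of 0 are 3 reads over the total.

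The members and lists were chosen with earlier results of these data known. Every measured germline end is named, with values per library where the mean was under 80%, where non-overlapping group means differed by at least 10 points, or among the 3 deepest of the rest; Tuba3b, Slc25a31, Tdrd1 and Dazl were in part added after their values were seen.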

Additional observations from a re-analysis of the deposited data

How the results depend on the processing

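No germline end was called under any alternative tried, but signs were not stable. Of 126 alternative values of the median difference over germline ends, 25 had the opposite sign, in each of the 7 comparisons at least once, and so had 106 of 1538 differences at single ends. None of these was a called value. Over all gene ends, where edgeR's quasi-likelihood test called 0, the likelihood ratio test called 220 for the combination against Vehicle, 3 for AG120 against Vehicle, 11 for AZA against Vehicle, 166 for the combination against AZA, 213 against AG120, 278 by AG120 and 175 by AZA. DESeq2 called 140, 137, 235, 305 and 191 for the combination against Vehicle, AZA and AG120, by AG120 and by AZA. Over positions read in all libraries, 1 end was called by AG120, Rn18s-rs5, a ribosomal RNA copy. Leaving out single libraries gave 0 to 1 called ends for AG120 against Vehicle and by AG120 (Rn18s-rs5, without AG120 replicate 1) and 0 in the other comparisons. The cause was not tested.

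The median difference over germline ends ranged, with single libraries left out, from −4.02 to −0.229 points for the combination against Vehicle, −2.02 to 0.773 for AG120 and −3.67 to 2.32 for AZA against Vehicle. It ranged from −3.67 to 0.0285 for the combination against AZA, −1.92 to 1.23 against AG120, −3.27 to 1.24 by AG120 and −2.38 to 2.63 by AZA. On the 6 ends with enough positions read in all libraries it was −5.53 by AZA.

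The median level moved in some libraries. On those 6 ends it was 76.2 and 73.8% in the combination, 83.1 and 69.4% with AG120, 33.6 and 65.7% with AZA, and 69.4 and 90.1% in Vehicle. With strands merged, chosen after seeing the data, it was 95.9% in combination replicate 2, 84.4% in AG120 replicate 2 and 79.4% in Vehicle replicate 1. In windows at transcript starts, also chosen after seeing the data, the combination had 91.6 and 87.0%. In AG120 replicate 1 it was 81.1% with at least 50 reads, 83.3% with no read filter, 95.1% with 500 bp outside and 84.9% with positions unweighted. In combination replicate 2 it was 88.7, 89.0 and 89.4% with no read filter, 500 bp outside and positions unweighted, and Vehicle replicate 1 had 91.4% unweighted. Of the differences at single ends, 65 moved by more than the spread between replicates and 1473 did not. Where each position was counted once, the combination minus Vehicle was −3.57 points at Boll and AG120 minus Vehicle −6.70 at Smc1b. On CpGs read in all libraries, the combination minus AZA was 12.6 points at Sycp2.

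Same-numbered libraries did not deviate together (r from −0.0329 to 0.0021 over all ends), so the numbers were not taken as pairs. The fit with a replicate block called 0 ends in each comparison, with 295 to 703 under an unadjusted 0.05.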

Other observations

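Outside the 46 genes, 22 of 68 other germline genes had a measured end, chosen as a list with these data known. Of their 23 ends, 7 had a mean of at least 80%, led by Sohlh2 (96.5%), a transcription factor of early germ cells, and 12 were under 20%. These shares were 30.4 and 52.2%, beside 10.8 and 74.1% of all ends. Sohlh2 had 93.7 and 99.6% in the combination, 100 and 95.1% with AG120, 91.7 and 92.1% with AZA, and 99.5 and 100% in Vehicle. Gapdhs, the sperm form of a glycolytic enzyme, had 0% in the combination against 2.70% ± 0.627 in Vehicle (SD, n = 2 each; edgeR adjusted p = 0.991). Mcmdc2, which acts in meiotic recombination, had 22.9% ± 6.19 against 0.580% ± 0.714 (SD, n = 2 each; edgeR adjusted p = 0.991).

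Uhrf2, named here after its values were seen, had 74.4 and 27.5% in the combination and 42.0 and 31.9% with AG120, against 1.97 and 21.1% with AZA and 8.61 and 2.37% in Vehicle, so that the 4 libraries with AG120 lay above the 4 without it. This held for 1.13% of all ends, and edgeR called 0 of the 13 machinery ends in that comparison.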
